A study of Homo sapiens with 4 samples.

Results

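The spindle assembly checkpoint and its target, the anaphase-promoting complex (APC/C), were followed through 10 regulatory genes, CDC20, FZR1, FBXO5, UBE2C, PTTG1, ESPL1, BUB1, BUB1B, MAD2L1 and TTK. The genes were taken by symbol from the annotation of the array, and all 10 of them were measured, each by 1 probe set, among 17687 named genes. RNA came from PC3 cells stably carrying shCD267, a short hairpin RNA against TNFRSF13B (CD267), PC3 cells with the empty vector (Ctrl), 22RV1 cells with shCD267 and 22RV1 cells with the empty vector. PC3 (PC-3) and 22RV1 (22Rv1) are both established lines of human prostate cancer. According to the methods, the hairpin had 1 target sequence, was delivered by a lentivirus in the pLKO.1 vector, and cells of every group were selected with puromycin. There was 1 array per group, so no difference between groups has a replicate error or a test, and each value is only as precise as a single array allows.

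The checkpoint holds a cell in metaphase until every chromosome is attached to the spindle. Kinases at unattached kinetochores, TTK (MPS1) and BUB1, help to assemble an inhibitory complex of MAD2L1 (MAD2), BUB1B (BUBR1), BUB3 and CDC20. Once this complex comes apart, CDC20 activates the APC/C, a ubiquitin ligase. The APC/C then marks securin (PTTG1) and cyclin B for destruction, which frees separase (ESPL1) to cut the cohesin that holds sister chromatids together. FZR1 (CDH1) takes over from CDC20 late in mitosis and in G1, FBXO5 (EMI1) inhibits the complex before mitosis, and UBE2C (UBCH10) is an E2 enzyme that hands it ubiquitin. Transcripts of most of these genes peak in G2 and mitosis, whereas FZR1 and the core subunits are expressed more evenly through the cycle. In RNA from a whole culture, fewer dividing cells and less RNA per cell cannot be told apart.

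In PC3 cells, 8 of the 10 genes were at least 2-fold lower with shCD267 and none was higher by as much, led by CDC20, FBXO5 and BUB1, beside 4.69% of all genes that were at least 2-fold lower. In 22RV1 cells 7 of these 8 genes were at least 2-fold higher with shCD267 once the arrays had been brought to 1 distribution (quantile normalization), beside 13.3% of all genes. As deposited all 10 stood higher there, but so did 15854 of the 17687 genes, and the largest difference of the 10 was that of separase, ESPL1. FZR1 was the gene with the smallest difference of the 10 in both lines. Among the 14 core subunits of the APC/C none was lower by 2-fold in PC3 cells, a count near the share of all genes. The threshold of 2-fold is that of the methods.

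TNFRSF13B, the targeted gene (NCBI gene 23495), had a log2 value of 4.85 with shCD267 and 5.25 with Ctrl in PC3 cells, and of 5.63 with shCD267 and 6.08 with Ctrl in 22RV1 cells. It was lower on the shCD267 array of each line, with differences of -0.40 in PC3 cells and -0.45 in 22RV1 cells as deposited, the second of which was -2.20 after quantile normalization, and its PC3 shCD267 value lay below background. The 22RV1 Ctrl array was dimmer than the others, with a median over all probe sets of 5.33, against 6.93 to 7.01 on the other 3 arrays. The sources used here do not say whether the 4 arrays were normalized in 1 run, so a deposited difference in 22RV1 cells holds this shift between the arrays as well as any difference between the cells. The median difference between shCD267 and Ctrl over all genes was 1.22 on the log2 scale in 22RV1 cells and -0.0019 in PC3 cells. Each difference is therefore given on the deposited scale and again with the 4 arrays brought to 1 common distribution (quantile normalization), where these medians were -0.059 in 22RV1 cells and 0.0078 in PC3 cells. Of 6 mesenchymal markers that PC3 cells express, all 6 were above background on both PC3 arrays, with summed log2 values of 75.4 and 75.9 on the PC3 shCD267 and Ctrl arrays and of 36.7 and 34.7 on the 22RV1 shCD267 and Ctrl arrays. On the 22RV1 arrays 4 of the 6 (shCD267) and 6 of the 6 (Ctrl) were above background. Of 6 luminal prostate markers measured, 6 were above background on each 22RV1 array and 5 on each PC3 array, where FOLH1 was not. Their summed log2 values were 46.7 (shCD267) and 43.8 (Ctrl) in PC3 cells, and 62.2 (shCD267) and 53.2 (Ctrl) in 22RV1 cells. Of these markers only FOLH1 and STEAP2 were higher on both 22RV1 arrays than on either PC3 array. HOXB13 went the other way, at 12.40 (shCD267) and 12.23 (Ctrl) in PC3 cells and 9.89 (shCD267) and 7.72 (Ctrl) in 22RV1 cells. For KLK2, KLK3 and TMPRSS2 the values of the lines overlapped, so the sums do not mark the lines gene by gene. The 4 fibroblast markers summed to 22.6 (shCD267) and 20.3 (Ctrl) in PC3 cells and to 24.1 (shCD267) and 17.96 (Ctrl) in 22RV1 cells, and 1 or 2 of them were above background on each array. The 4 leukocyte markers summed to 22.7 (shCD267) and 22.5 (Ctrl) in PC3 cells and to 22.5 (shCD267) and 16.7 (Ctrl) in 22RV1 cells, and 2 to 4 of them were above background. Their part in the results was not tested.

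The level of each gene lay above background on all 4 arrays. Background was set per array at the 95th percentile of 348 olfactory receptor genes. It was 4.98 for PC3 shCD267, 4.92 for PC3 Ctrl, 5.30 for 22RV1 shCD267 and 3.91 for 22RV1 Ctrl. Most of these receptor genes were taken to be little used by these cells, which was not tested. Their differences in 22RV1 cells ran from -3.10 to 3.21 as deposited, so not all of them need be silent. The lowest value of any of the 10 genes was 5.93, for ESPL1 on the 22RV1 Ctrl array. The leukocyte marker CD79A also lay above background on all 4 arrays, at 5.54 on the 22RV1 Ctrl array. On the PC3 shCD267 array CD79A stood at 7.03 and FBXO5 at 7.33. A value above this background is therefore not by itself evidence of expression.

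**Figure D1:**
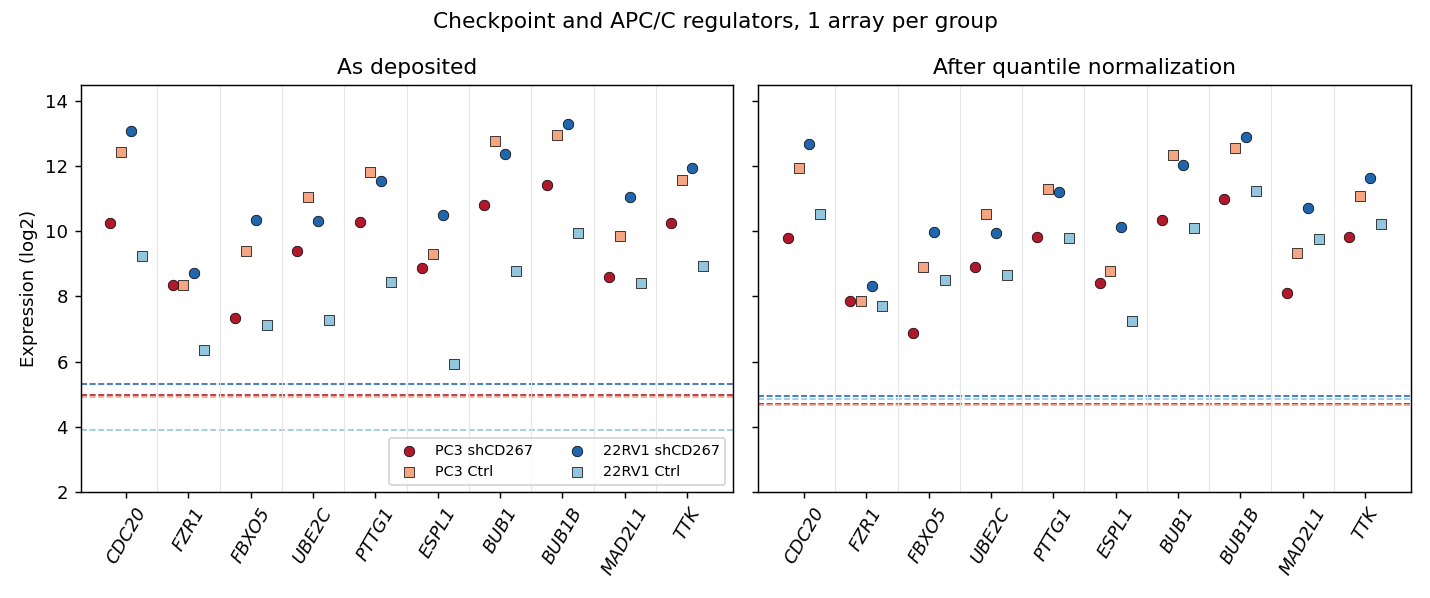
Log2 expression of the 10 genes on each array (circles, shCD267; squares, Ctrl; red, PC3; blue, 22RV1), as deposited on the left and after quantile normalization on the right, with dashed lines at the background of each array. All 10 genes lie above the dashed lines, and as deposited the PC3 Ctrl and 22RV1 shCD267 values are the upper pair for all 10.

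Since most of these genes differed in the same direction, their promoters are shown before the values, with the short elements through which late cell cycle genes are known to be controlled. These are the cell cycle genes homology region (CHR, searched as TTTGAA, and as the variant TTCGAA), to which the DREAM and MuvB complexes bind, and the CCAAT box, to which NF-Y binds. The RefSeq table (GRCh38.p14) held 11 promoter windows for 8 of the 10 genes, each running from 250 bases before to 50 bases after a transcription start. UBE2C and TTK were not among the 8. On either strand, TTTGAA was in 6 of these 11 windows (of 6 genes) and in 15.2% of all 35116 windows, and CCAAT was in 7 of the 11 windows (of 6 genes) and in 34.6% of all windows. The 150 bases before the start are printed for 4 genes with a CHR there and for FZR1, which had none within these bases, with CHR and CCAAT matches of either strand in capitals.
CDC20: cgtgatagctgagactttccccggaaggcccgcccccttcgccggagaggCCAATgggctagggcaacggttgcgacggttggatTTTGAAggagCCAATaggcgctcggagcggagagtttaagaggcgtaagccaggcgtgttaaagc
FBXO5: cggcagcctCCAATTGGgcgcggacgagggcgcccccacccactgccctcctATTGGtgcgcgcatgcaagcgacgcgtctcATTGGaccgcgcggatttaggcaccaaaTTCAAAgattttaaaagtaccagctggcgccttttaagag
ESPL1: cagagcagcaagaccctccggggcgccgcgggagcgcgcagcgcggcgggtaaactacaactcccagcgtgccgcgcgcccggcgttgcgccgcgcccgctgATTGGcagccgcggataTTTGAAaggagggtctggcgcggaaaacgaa
BUB1B: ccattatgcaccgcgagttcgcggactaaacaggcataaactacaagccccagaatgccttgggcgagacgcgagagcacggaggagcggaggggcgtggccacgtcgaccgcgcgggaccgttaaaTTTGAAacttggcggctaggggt
FZR1: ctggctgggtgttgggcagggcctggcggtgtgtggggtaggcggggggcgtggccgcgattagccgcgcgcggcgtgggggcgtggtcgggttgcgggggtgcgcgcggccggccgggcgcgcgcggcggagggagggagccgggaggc
The CDC20 stretch is chr1:43358831-43358980 (plus strand), that of FBXO5 chr6:152983042-152983191 (minus strand), of ESPL1 chr12:53268149-53268298 (plus), of BUB1B chr15:40160919-40161068 (plus) and of FZR1 chr19:3506161-3506310 (plus), in GRCh38.p14. In CDC20, TTTGAA ran from 65 to 60 bases before the start, with CCAAT boxes from 100 to 96 and from 55 to 51 bases before it. A second match in CDC20, read as TTCAAA, lay from 178 to 173 bases before the start, outside the printed stretch. In FBXO5 the element lay on the minus strand of the gene, read as TTCAAA, from 40 to 35 bases before the second of its 2 listed starts, after 4 CCAAT boxes, of which 2 overlap. In ESPL1 it ran from 31 to 26 bases before the start, after a CCAAT box, and in BUB1B from 23 to 18 bases before the start with no CCAAT box in the window. FZR1 had a single TTTGAA, from 226 to 221 bases before the first of its 2 listed starts, outside the printed stretch. In MAD2L1 the element lay after the start, from 25 to 30 bases, and BUB1 held the variant TTCGAA from 2 to 7 bases after the start, a variant found in 1.45% of all windows. PTTG1 had CCAAT boxes and no CHR match in either of its windows. Like FZR1, the genes BUB1, MAD2L1 and PTTG1 thus had no TTTGAA within the 150 bases before a start. Unlike FZR1, each of them was at least 2-fold lower in PC3 cells with shCD267. The E2F sites searched (TTTCCCGC, TTTGGCGC, TTTCGCGC and TTTGCCGC) were in none of the 11 windows and in 3.31% of all windows. A match here is a description of letters and not of a bound site.

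In PC3 cells, 8 of the 10 genes were at least 2-fold lower with shCD267, beside 4.69% of all genes as deposited and 4.25% after quantile normalization. The median difference of the 10 genes was -1.54 on the log2 scale as deposited and -1.52 after quantile normalization. In 22RV1 cells all 10 were at least 2-fold higher as deposited, but so were 58.3% of all genes, and the median difference was 3.16. After quantile normalization 8 of the 10 remained at least 2-fold higher, beside 13.3% of all genes, with a median difference of 1.44. A pattern of at least 2-fold lower in PC3 and at least 2-fold higher in 22RV1 cells was shown by 8 of the 10 genes as deposited, beside 3.56% of all genes, and by 7 after quantile normalization, beside 1.63%. The difference between the lines was not tested.

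**Figure D2:**
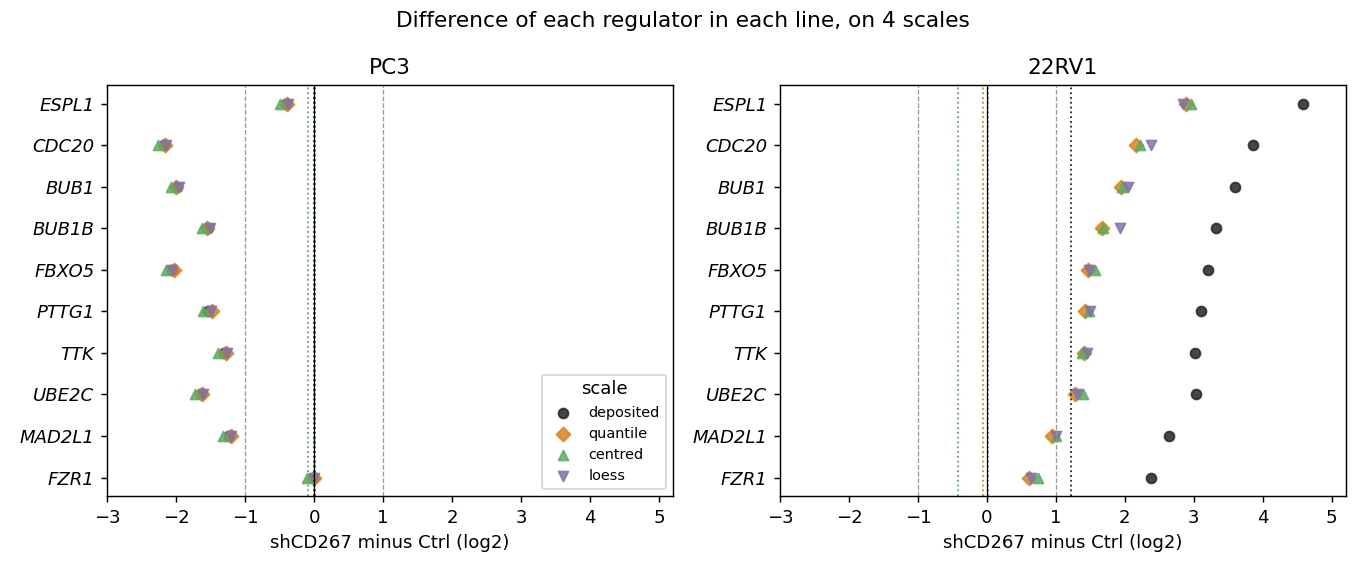
Difference between shCD267 and Ctrl (log2) of each gene in PC3 cells (left) and 22RV1 cells (right), as deposited, quantile-normalized, centred on a common median and after loess, with dashed lines at 2-fold and dotted lines at the median of all genes on each scale. The 4 scales nearly coincide in PC3 cells, whereas in 22RV1 cells the deposited differences lie above the other 3 for every gene.

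The 2 coactivators of the APC/C had unlike values. CDC20 (NCBI gene 991), the mitotic coactivator, stood at 10.26 with shCD267 and 12.44 with Ctrl in PC3 cells, a difference of -2.18, or 4.54-fold lower. Only 0.32% of all genes had a lower difference in that line. In 22RV1 cells CDC20 stood at 13.10 with shCD267 and 9.25 with Ctrl, a difference of 3.85 as deposited and 2.16 after quantile normalization. After that normalization CDC20 was 4.46-fold higher with shCD267, and 2.13% of all genes had a higher difference. CDC20 was thus high on the PC3 Ctrl and 22RV1 shCD267 arrays and low on the other 2.

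FZR1 (NCBI gene 51343), the coactivator of mitotic exit and G1, stood at 8.35 with shCD267 and 8.37 with Ctrl in PC3 cells, a difference of -0.02. In 22RV1 cells it stood at 8.74 with shCD267 and 6.35 with Ctrl, a difference of 2.38 as deposited that did not reach 2-fold on the other scales, at 0.61 after quantile normalization, 0.75 after centring and 0.63 after loess. After quantile normalization its 4 values spanned only 7.71 to 8.33. The deposited median difference of 22RV1 genes of a like mean level was 1.76.

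FBXO5 (NCBI gene 26271) encodes EMI1, which keeps the APC/C inactive through S phase and G2. In PC3 cells FBXO5 stood at 7.33 with shCD267 and 9.40 with Ctrl, a difference of -2.07, or 4.19-fold lower. In 22RV1 cells it stood at 10.34 with shCD267 and 7.13 with Ctrl, a difference of 3.21 as deposited and 1.46 after quantile normalization. Among the 10 genes only CDC20 had a lower difference in PC3 cells.

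UBE2C (NCBI gene 11065), the E2 enzyme that starts ubiquitin chains on APC/C substrates, stood at 9.40 with shCD267 and 11.04 with Ctrl in PC3 cells, a difference of -1.65, or 3.13-fold lower. In 22RV1 cells UBE2C stood at 10.31 with shCD267 and 7.28 with Ctrl, a difference of 3.03 as deposited and 1.28 after quantile normalization, or 2.42-fold higher. UBE2S, the E2 that extends these chains, had differences of -1.75 in PC3 cells and of 3.39 as deposited and 1.66 after quantile normalization in 22RV1 cells. Both E2 genes were thus at least 2-fold lower in PC3 and at least 2-fold higher in 22RV1 cells on either scale.

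The checkpoint genes among the 10, BUB1, BUB1B, TTK and MAD2L1, shared the direction of CDC20 in both lines. BUB1 (NCBI gene 699), a kinetochore kinase that phosphorylates histone H2A, stood at 10.80 with shCD267 and 12.79 with Ctrl in PC3 cells, a difference of -1.99, or 3.98-fold lower. In 22RV1 cells BUB1 stood at 12.38 with shCD267 and 8.78 with Ctrl, a difference of 3.60 as deposited and 1.94 after quantile normalization. BUB1 was the third lowest of the 10 in PC3 and the third highest in 22RV1 cells.

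BUB1B (NCBI gene 701), whose product BUBR1 binds CDC20 within the inhibitory complex, stood at 11.43 with shCD267 and 12.97 with Ctrl in PC3 cells, a difference of -1.54. In 22RV1 cells BUB1B stood at 13.29 with shCD267 and 9.96 with Ctrl, a difference of 3.32 as deposited and 1.66 after quantile normalization. BUB1B was 2.92-fold lower in PC3 cells as deposited and 3.17-fold higher in 22RV1 cells after quantile normalization.

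TTK (NCBI gene 7272), the kinase at the head of the checkpoint, stood at 10.27 with shCD267 and 11.57 with Ctrl in PC3 cells, a difference of -1.30. In 22RV1 cells TTK stood at 11.95 with shCD267 and 8.93 with Ctrl, a difference of 3.02 as deposited and 1.41 after quantile normalization. Its difference passed 2-fold in each line on either scale.

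MAD2L1 (NCBI gene 4085), the protein that changes shape to capture CDC20, stood at 8.60 with shCD267 and 9.84 with Ctrl in PC3 cells, a difference of -1.24, or 2.36-fold lower. In 22RV1 cells MAD2L1 stood at 11.06 with shCD267 and 8.42 with Ctrl, a difference of 2.64 as deposited. This became 0.94 after quantile normalization, or 1.92-fold, and 1.01 after centring, so whether MAD2L1 passed 2-fold in 22RV1 cells rested on the scale. Of the 8 genes lower by 2-fold in PC3 cells, MAD2L1 was the smallest difference in both lines.

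Securin and separase, the pair on which sister separation turns, differed in PC3 cells. PTTG1 (securin, NCBI gene 9232) stood at 10.28 with shCD267 and 11.81 with Ctrl in PC3 cells, a difference of -1.53, or 2.89-fold lower. ESPL1 (separase, NCBI gene 9700) stood at 8.88 with shCD267 and 9.29 with Ctrl, a difference of -0.41 that did not reach 2-fold, and 21.1% of all genes had a lower one. In 22RV1 cells PTTG1 stood at 11.56 with shCD267 and 8.44 with Ctrl, a difference of 3.11 as deposited and 1.42 after quantile normalization. ESPL1 stood at 10.52 with shCD267 and 5.93 with Ctrl, a difference of 4.59 as deposited and 2.89 after quantile normalization, or 7.40-fold higher. Only 0.61% of all genes had a higher difference after quantile normalization, so that separase was at the same time the gene of the 10 with the largest difference in 22RV1 cells and, after FZR1, the smallest in PC3 cells. PTTG2, a near-identical copy of PTTG1 that was looked up outside the rule for named genes, had a difference of -0.86 in PC3 cells as deposited and, on the quantile-normalized scale, 0.61 in 22RV1 cells, and signal shared between the copies cannot be told apart.

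The order of the lines was not the same with shCD267 as with Ctrl. The lines were grown in different media, and line and medium cannot be told apart. Among the shCD267 arrays, all 10 genes were lower in PC3 than in 22RV1 cells after quantile normalization, and 9 were lower by at least 2-fold, beside 16.5% of all genes. The median of PC3 minus 22RV1 was -1.79 for the 10 genes, with FBXO5 at -3.11, CDC20 at -2.89 and FZR1 at -0.46. Among the Ctrl arrays, 9 of the 10 were higher in PC3 than in 22RV1 cells and 6 by at least 2-fold, beside 19.6% of all genes. Here the median of PC3 minus 22RV1 was 1.37, with BUB1 at 2.26, UBE2C at 1.89, FZR1 at 0.15 and MAD2L1, the exception, at -0.43. Both the PC3 Ctrl and the 22RV1 shCD267 value lay above both other values for all 10 genes as deposited, beside 26.1% of all genes, and for 8 after quantile normalization, beside 12.2%. The 2 genes that left the pattern were MAD2L1, whose 22RV1 Ctrl value of 9.77 exceeded its PC3 Ctrl value of 9.33, and FZR1, whose PC3 values were both 7.87. These comparisons and the differences within a line use the same 4 arrays.

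**Figure D3:**
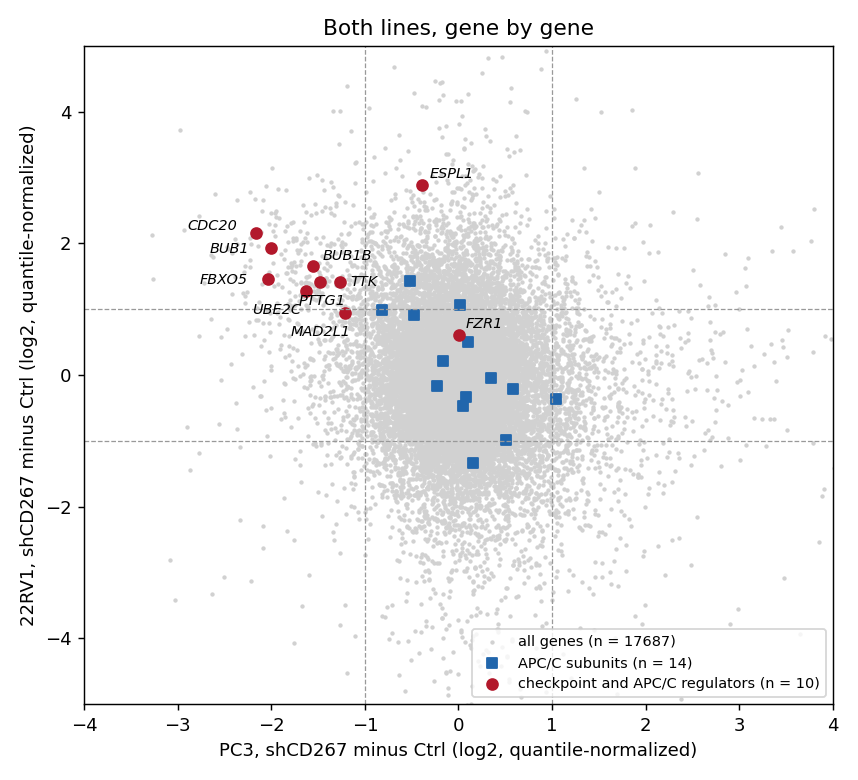
Difference between shCD267 and Ctrl after quantile normalization (log2) in PC3 cells (x axis) and 22RV1 cells (y axis) for all genes (grey), the 14 APC/C subunits (blue squares) and the 10 regulators (red, named), with dashed lines at 2-fold; 107 genes lie outside the axes. The upper left field holds 7 of the 10 regulators and none of the 14 subunits.

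The median difference of the APC/C core lay near that of all genes in PC3 cells and, after quantile normalization, in 22RV1 cells. None of its 14 subunits was lower by at least 2-fold in PC3 cells, beside 4.69% of all genes as deposited and 4.25% after quantile normalization, so a count of 0 says little about the subunits. The median difference was -1.54 for the 10 regulators and -0.0092 for the subunits as deposited. ANAPC1, the large scaffold subunit, had the lowest difference, -0.87, and ANAPC13 the highest, 0.94 as deposited and 1.04 after quantile normalization. In 22RV1 cells 12 of the 14 subunits were at least 2-fold higher as deposited (median 1.57), beside 58.3% of all genes. After quantile normalization ANAPC15 (1.43), which helps to turn over the inhibitory complex, and CDC23 (1.07) were higher, a share of the 14 near the 13.3% of all genes, ANAPC4 (-1.34) was lower, and the median was -0.11. The other subunits past 2-fold only as deposited, ANAPC1, ANAPC2, ANAPC5, ANAPC7, ANAPC10, ANAPC11, ANAPC13, CDC16, CDC26 and CDC27, ranged from -0.48 to 0.996 after quantile normalization. The regulators and the subunits were not set against each other by a test.

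Other checkpoint and kinetochore genes were at least 2-fold lower in PC3 cells for 10 of 16 measured, beside 4.69% of all genes, and none was higher (median -1.30). The list was led by NDC80 (-2.47) and NUF2 (-2.31), which attach kinetochores to microtubules, and the kinesin CENPE (-2.17). In 22RV1 cells all 16 were at least 2-fold higher as deposited (median 2.97), beside 58.3% of all genes, and 9 after quantile normalization (median 1.29), beside 13.3%, led by CENPE (2.68), SPC25 (2.32) and SPDL1 (2.09). NDC80, the lowest of the list in PC3 cells, had a difference of -0.07 in 22RV1 cells after quantile normalization. Of its 3 complex partners, SPC24 stood at -0.24, NUF2 at 1.25 and SPC25 at 2.32 on that scale. BUB3 did not reach 2-fold in PC3 cells (-0.64) or, after quantile normalization, in 22RV1 cells (0.30), and the MAD2L1 partner MAD1L1 had values of 0.60 and -0.05.

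Genes whose proteins the APC/C destroys were the list with the largest share lower in PC3 cells. Of 25 measured, 24 were at least 2-fold lower (median -1.78), beside 4.69% of all genes, and SKP2 (-0.07) was the exception. The lowest were CDCA3 (-3.10), the spindle protein NUSAP1 (-2.51) and cyclin B2, CCNB2 (-2.30). Among the others, not all named here, were the mitotic kinases PLK1 (-2.18) and AURKB (-2.06), the kinesin KIF22 (-2.14) and cyclin B1, CCNB1 (-1.83). The PC3 shCD267 value of CDCA3, 4.72, lay below the background of its array. In 22RV1 cells all 25 were at least 2-fold higher as deposited (median 2.92), beside 58.3% of all genes, and 19 after quantile normalization (median 1.19), beside 13.3%, among them KIF22 (2.66), AURKB (2.47), CDCA3 (2.21) and CCNB1 (2.02). Because these lists were written with earlier results of the same arrays known, their counts are no independent evidence of the direction.

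Cohesin, which separase cuts, had calls in either direction. The list held 14 genes, and RAD21, a cohesin subunit, was the gene not measured. Of 13 measured genes of cohesin and its regulators, 2 were at least 2-fold lower in PC3 cells (the ring subunit SMC1A, -1.04, and the acetyltransferase ESCO2, -1.82). The loader NIPBL (1.09) was higher, and the median was -0.42. Beside these, 4.69% of all genes were lower and 5.76% higher, so 1 higher gene of 13 is near the share of all genes. After quantile normalization SMC1A, at -0.98, was no longer past 2-fold, and 1 gene was lower. In 22RV1 cells 11 were at least 2-fold higher as deposited (median 2.01), beside 58.3% of all genes. After quantile normalization 4 were higher, beside 13.3% of all genes, STAG1 (2.31), PDS5B (2.11), the cohesin protector SGO2 (1.86) and ESCO2 (1.44). On that scale 2 were lower, WAPL (-1.33) and ESCO1 (-1.14), a share of the 13 near the 15.5% of all genes. The median was 0.41. ESCO2 was the gene of this list with the 2-line pattern of the regulators after quantile normalization. Its relative ESCO1 had a difference of 0.22 in PC3 cells.

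Of 9 further enzymes and inhibitors of the APC/C, 4 were at least 2-fold lower in PC3 cells, CCNF (cyclin F, -2.37), the meiotic inhibitor FBXO43 (EMI2, -1.89), UBE2S and MAD2L2 (-1.11), beside 4.69% of all genes. In 22RV1 cells 6 were at least 2-fold higher as deposited (median 1.86), a share near the 58.3% of all genes. After quantile normalization 4 were higher, beside 13.3% of all genes, FBXO43 (2.81), UBE2S, CCNF (1.26) and RASSF1 (1.04), and the deubiquitinase OTUD7B (-1.59) was lower, with a median of 0.69. The 22RV1 Ctrl value of FBXO43, 2.49, and the PC3 shCD267 value of CCNF, 4.95, lay below the background of their arrays, so these differences are against background. RASSF1 lay below background on all 4 arrays, with 4.601 (shCD267) and 2.739 (Ctrl) in 22RV1 cells, so its difference is between background values. MAD2L2, a relative of MAD2L1 that inhibits FZR1, had a difference in 22RV1 cells of 0.76 as deposited and -0.91 after quantile normalization, so that its direction there rested on the scale.

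**Figure D4:**
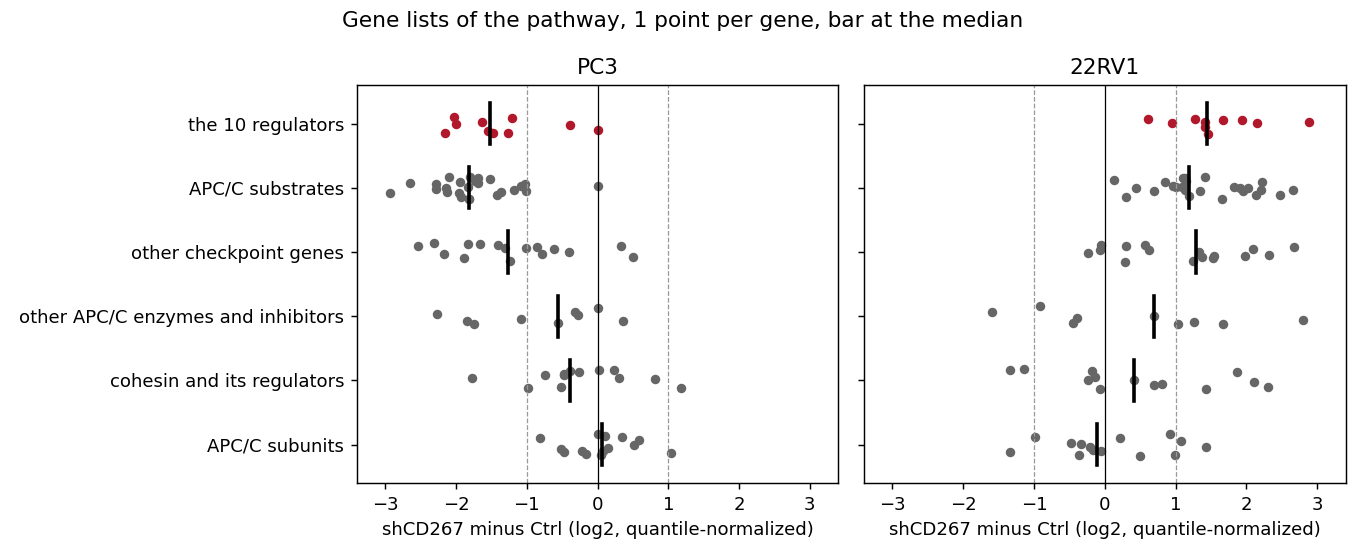
Difference between shCD267 and Ctrl after quantile normalization (log2) for each measured gene of 6 lists in PC3 cells (left) and 22RV1 cells (right), 1 point per gene with a bar at the median and dashed lines at 2-fold. The medians of the 10 regulators, -1.52 in PC3 and 1.44 in 22RV1 cells, lie near those of the substrates and other checkpoint genes, and those of the APC/C subunits, 0.06 and -0.11, lie near 0.

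The genes whose pair of differences came nearest to the median pair of the 10 regulators, -1.52 in PC3 and 1.44 in 22RV1 cells after quantile normalization, were FAM72C, VRK1, NPTX1, WDHD1 and ARHGAP19-SLIT1, at Euclidean distances of 0.01 to 0.09 over the 2 lines. VRK1 (-1.48 and 1.47) is a mitotic kinase that phosphorylates histone H3, and WDHD1 (-1.58 and 1.38) works at the replication fork. FAM72C (-1.51 and 1.45) has near-identical copies in the genome, ARHGAP19-SLIT1 (-1.48 and 1.52) is a read-through of neighbouring genes, and NPTX1 (-1.49 and 1.39) encodes a neuronal pentraxin. With 2 differences per gene, this likeness is a description and rests on the same 4 arrays.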

How the data were processed

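The authors deposited log2 expression in 1 table that covers 24351 probe sets on 4 arrays, with 1 array per group. RMA, Partek and Affymetrix Expression Console appear in the submitters' processing notes, and the methods name Affymetrix Expression Console and Transcriptome Analysis Console. Versions and genome build are not given in the sources used here. Of the probe sets, 17709 had 1 symbol and 6642 none in the platform annotation. Symbols were updated by NCBI gene number through RefSeq (GRCh38.p14), and 20 genes with several probe sets were taken at the brightest, which left 17687 genes.

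A difference is the log2 value with shCD267 minus that with Ctrl in the same line, and the threshold was 2-fold. With 1 array per group no test was made. Alternatives were quantile normalization of the 4 arrays, centring on a common median, loess (span 0.4), filters on dim genes, the mean of probe sets, and thresholds of 1.5-fold and 3-fold. Promoter sequences are from RefSeq. The steps were tested on simulated data. The 10 genes, the 5 pathway lists and the rules were chosen with earlier results of these data known. Named genes were the 10 regulators, TNFRSF13B, up to 4 genes of each list with the largest difference after quantile normalization, APC/C subunits past 2-fold and the 5 nearest genes; CCNB1, CCNB2, PLK1, SPC24, SPDL1, BUB3, MAD1L1, SKP2, SMC1A, NIPBL, WAPL, ESCO1, MAD2L2, RASSF1 and PTTG2 were named after their values were seen. Python 3.11.15, pandas 2.3.3 and statsmodels 0.14.6 were used.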

Additional observations from a re-analysis of the deposited data

Results flagged for a closer look

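For 9 of the 10 genes the 22RV1 pair of arrays differed in the opposite direction from the PC3 pair on each of the 4 scales. A difference of any size met this rule, and the share of all genes that met it was not counted. After quantile normalization 8741 of the 17687 genes lay below 0 in PC3 cells, and 8383 lay above 0 in 22RV1 cells. With 1 array per group the difference between the lines was not tested for these 9 genes. After quantile normalization the 22RV1 difference exceeded the PC3 difference by 4.32 on the log2 scale for CDC20, 3.94 for BUB1, 3.49 for FBXO5, 3.27 for ESPL1 and 3.22 for BUB1B. The excess was 2.90 for UBE2C, 2.90 for PTTG1, 2.68 for TTK and 2.16 for MAD2L1. FZR1, the remaining gene, had a difference of 0.00 in PC3 cells on that scale and an excess of 0.61.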

How the results depend on the processing

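The PC3 results hardly depended on the scale. The count of 8 regulators at least 2-fold lower was the same after quantile normalization, centring and loess, and 4 were lower by 3-fold as deposited. With 3-fold, the count of regulators lower in PC3 and higher in 22RV1 cells as deposited was likewise 4. Its 22RV1 part holds the shift between the arrays, and the share of all genes past 3-fold was not counted. In 22RV1 cells the median difference of the 10 regulators, 3.16 as deposited, was 1.44 after quantile normalization, 1.52 after centring and 1.49 after loess, and all 10 differences stayed above 0 on each scale. The median of the APC/C subunits in 22RV1 cells, 1.57 as deposited, turned to -0.11 after quantile normalization, -0.067 after centring and -0.060 after loess. These 3 settings shift all genes by unlike amounts. The 22RV1 median over all genes, 1.22 as deposited, was -0.059 after quantile normalization and 0.021 after loess. After centring, which used the median of all probe sets, it was -0.42, so 0 is not the middle of all genes on that scale. The centred subunit median of -0.067 lay below 0 but above this median of all genes. Of the single genes and list medians, all 45 values of PC3 cells stayed within 1.5-fold of the deposited value under these settings, and in 22RV1 cells 42 of 45 moved further than that without a change of direction. FZR1, at -0.02 in PC3 cells as deposited, was at 0.00 after quantile normalization. No gene of the 10 had several probe sets, so their mean changed nothing. Neither filter on dim genes removed any of the 10, so the filters could not change a count. No paired analysis was possible because each group had 1 array.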
